A study of Mus musculus with 14 samples.

Results

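The machinery of autophagy and mitophagy was described here through 41 genes of the 43346 in the table of mouse brain RNA. With earlier results of these data already seen, the genes were chosen for the known role of their proteins. They cover the kinase complex that starts autophagy (4 genes), the lipid kinase complex that marks the new membrane (6), the proteins that bring membrane and lipid (5), the conjugation enzymes (10), the ATG8 family (5), the cargo receptors (5), 2 transcription factors of the pathway and 4 genes of mitophagy. All 41 passed the filter on low counts in every comparison. Brain tissue came from 14 female mice aged 23 months, of strain C57BL/6;SJL-Tg. The 4 non-transgenic (NTG) littermates and 5 APP/PS1 mice received vehicle, 0.1% PEG in drinking water, and another 5 APP/PS1 mice received CP2, a tricyclic pyrone compound that weakly blocks complex I of the respiratory chain, at 25 mg/kg/day in the same vehicle from 9 months of age for 14 months. The labels call the vehicle-treated mice non-treated. APP/PS1 mice carry human APP and PS1 transgenes with familial Alzheimer's disease mutations, so that amyloid forms without the other causes of the disease, and NTG mice given CP2 were not used here. The APP/PS1 mice given CP2 are called CP2-treated mice.

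Autophagy encloses damaged proteins and organelles in a double membrane, the autophagosome, and hands them to the lysosome for breakdown. The ULK1 kinase complex starts the process under the control of AMPK and mTOR, a class III PI3-kinase complex writes PI3P on the growing membrane, and ubiquitin-like enzymes attach the ATG8 proteins (LC3 and GABARAP) to its lipids. Cargo receptors bind ubiquitinated cargo on one side and ATG8 proteins on the other. In mitophagy the cargo is a mitochondrion, marked by the kinase PINK1 or by receptors in its outer membrane. In neurons autophagosomes form far out in axons and travel to the cell body, and swollen neurites filled with autophagic vesicles surround amyloid plaques. Much of the control of the pathway acts on proteins, by phosphorylation, lipidation and turnover, which a count of RNA does not read. Ulk1, Becn1, Map1lc3b and Tfeb are given in full whatever their change, since the authors assayed their proteins by western blot in APP/PS1 mice. For Ulk1 and Becn1 the antibodies listed were against phosphorylated forms, and the blots were of younger mice after acute CP2 treatment. For Tfeb and Map1lc3b blots followed long CP2 treatment, and Map1lc3b was also in the acute set. The comparisons ask whether the RNA for the machinery differs with the APP/PS1 genotype, and whether long treatment with CP2 moves it.

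Total counts per mouse ranged from 70548781 to 106235625, and the members held between 322 counts (Atg4a) and 50338 counts (Gabarapl1) in a single mouse. Mice carry their library numbers, which are 7 to 10 for the NTG, 16 to 20 for the vehicle-treated APP/PS1 and 21 to 25 for the CP2-treated animals. The library of APP/PS1 mouse 16 stood apart in the part of the brain it held. Its 9 striatal marker genes summed to 2549 CPM (counts scaled to a library of fixed size, with TMM factors) against 202 to 390 CPM in the other 13 mice, and its 6 dentate gyrus markers summed to 32.3 CPM against 76.0 to 146 CPM. Counts of members, and the differences that this mouse moved most, are given with and without it. Neuronal markers summed to between 6071 and 7353 CPM over the 14 mice. The 10 microglial markers summed to between 443 and 461 CPM in NTG, 827 and 1229 CPM in APP/PS1 and 720 and 1047 CPM in CP2-treated mice, and 10 of 10 were higher in APP/PS1 than in NTG at an adjusted p under 0.05. In bulk tissue, fewer cells of a type and less RNA per cell cannot be told apart.

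TFEB and TFE3, the transcription factors among the members, bind a palindrome with the core CACGTG, and a longer palindrome around it is known as the CLEAR element of lysosomal and autophagy genes. Promoter windows ran from 250 bases before to 50 bases after the start of transcription given by RefSeq (GRCm38.p6). The set of windows used here held 34 of the 41 members. It lacked Rb1cc1, Becn1, Pik3c3, Atg12, Atg16l1, Map1lc3a and Bnip3l, whose promoters were not read. The core CACGTG was found in the windows of 5 members, or 14.7%, against 8.09% of the 27025 genes with a window. TCACGTGA, which contains the core, was found in 1 member (Atg3), or 2.94%, against 1.12% of genes. Both strands read alike, since the motifs are palindromes. The 6 sites are shown here because they are the places in these windows where the letters read by TFEB and TFE3 occur, each in 30 bases written 5′ to 3′ on the strand of the gene, with the core in capitals.
Atg14: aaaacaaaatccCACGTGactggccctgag
Atg3, distal: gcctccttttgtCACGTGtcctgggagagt
Atg3, proximal: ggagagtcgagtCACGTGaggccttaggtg
Atg5: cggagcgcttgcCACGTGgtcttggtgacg
Atg7: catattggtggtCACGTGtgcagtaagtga
Bnip3: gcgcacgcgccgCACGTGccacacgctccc
The Atg14 stretch lies at chr14:47568418-47568447 on the minus strand and its core begins at position -1 from the start of transcription. The Atg3 stretches lie at chr16:45158723-45158752 and chr16:45158746-45158775 on the plus strand, with cores at -94 and -71, and the proximal one holds TCACGTGA. The Atg5 stretch is at chr10:44268313-44268342 (plus strand, core at -14), that of Atg7 at chr6:114670952-114670981 (plus strand, core at -132) and that of Bnip3 at chr7:138909597-138909626 (minus strand, core at -108). For Atg7 and Atg4b the start that RefSeq gives lay over 1000 bases from the gene's start in the table (27999 bases inside it for Atg7), and the stretch before the table's start was not read. A match of letters is a description of sequence and was not linked here to binding. Of the 5 genes, Atg14 and Bnip3 are given mouse by mouse with their complexes, and none of the 5 passed an unadjusted p of 0.05 in any comparison. Their log2 fold changes for CP2 against vehicle in APP/PS1 mice ran from -0.13 (Atg14) to 0.02 (Bnip3), with a median of -0.01.

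The members were well expressed and steady. On the RPKM scale (reads per kilobase of exon, scaled to library size by the authors), the median member stood at 10.03 over the 14 mice against 5.14 for the 16521 genes tested in any comparison, and 32 members lay above that median of all genes. The ATG8 gene Gabarapl1 led with 218 RPKM, followed by Pink1 (124), the cargo receptor Sqstm1 (99.1) and Map1lc3a (81.4). Gabarapl1 (202 to 238 RPKM) was above every other member in every mouse, and the ranges of Pink1 (111 to 157 RPKM) and Sqstm1 (89.3 to 116 RPKM) overlapped at their ends. Gabarap (49.6 RPKM) and Gabarapl2 (47.3 RPKM) stood next, with ranges of 43.0 to 59.1 and 43.1 to 52.4 RPKM that overlapped almost whole. At the low end were Tfeb (1.54 RPKM), the protease gene Atg4a (1.65) and Tfe3 (3.01), and the ranges of Tfeb (1.21 to 1.93 RPKM) and Atg4a (1.2005 to 1.94 RPKM) overlapped. The SD of log2 CPM within groups had a median of 0.079 over the members against 0.129 over all genes. Members and all genes were not matched for level, so these medians do not set the members apart from other genes of like level. Wipi2, Becn1 and Atg4b were the steadiest (0.044 each, at percentiles 1.13 to 1.21 of all genes) and Fundc1 (0.17), Optn (0.16) and Tfeb (0.16) the most variable.

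**Figure D1:**
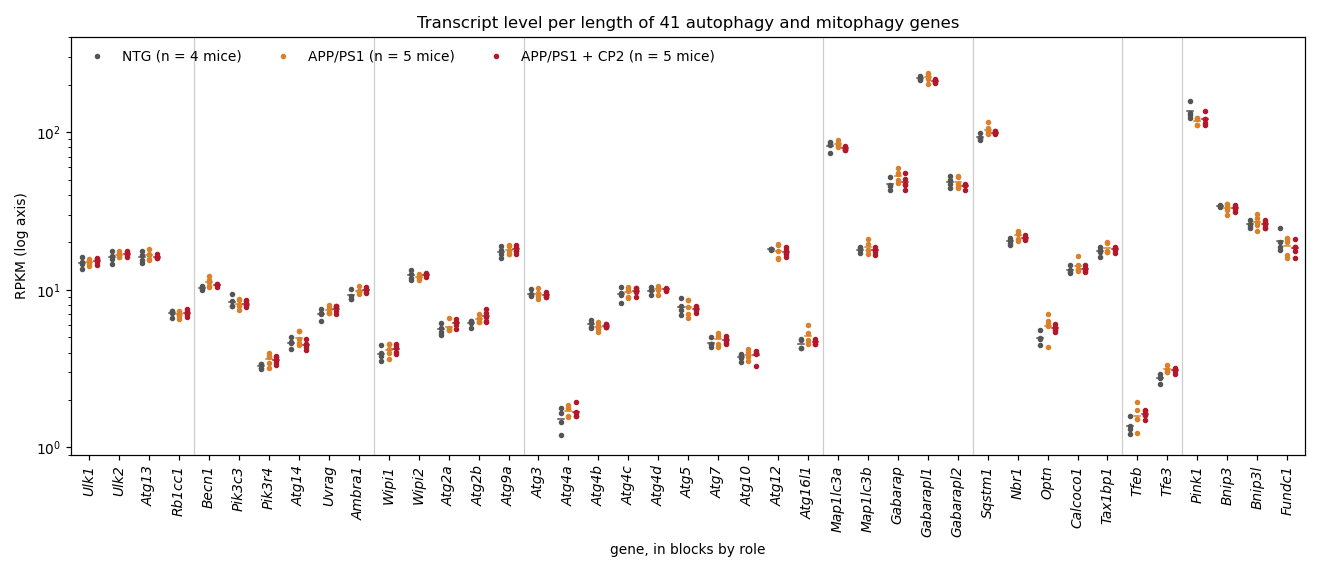
Level per length (RPKM, log axis) of the 41 genes in every mouse, ordered in blocks by role and coloured by group; short bars are group means. Gabarapl1 and Pink1 sit at the top and Tfeb and Atg4a at the bottom, and the 3 groups lie close together for every gene.

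Within the ATG8 family, which supplies the proteins that coat the autophagosome, Gabarapl1 made up most of the summed RPKM. Its share of the summed RPKM of the 5 genes was 53.0% ± 0.59 (SD, n = 4) in NTG, 52.3% ± 1.37 (SD, n = 5) in APP/PS1 and 52.6% ± 1.05 (SD, n = 5) in CP2-treated mice. Map1lc3a held 19.7%, 19.6% and 19.6% in the same order. Map1lc3b, which encodes the LC3B protein most used as a marker of autophagosomes, was the smallest part of the summed RPKM with 4.35%, 4.36% and 4.41%. These shares depend on the exonic length used, 7517 bases for Map1lc3b and 1181 to 2325 bases for the other ATG8 genes. In CPM, which is not divided by length, the NTG mean of Map1lc3b (169 CPM) came after that of Gabarapl1 (485 CPM). It was above those of Gabarapl2 (141 CPM), Map1lc3a (121 CPM) and Gabarap (108 CPM). The share that differed most between groups was that of Gabarap, at 11.3% ± 0.998 in NTG and 12.4% ± 1.11 in APP/PS1 mice, a gap of the size of the spread between mice. Gabarapl1 shares 28.3% of its exonic bases with 1700101I11Rik on the opposite strand. The library kit does not mark strand, and a read was counted on every gene it overlapped, so reads of such pairs cannot be told apart. Of the 10 members with any such overlap, 5 exceeded 10% of their exonic bases. Besides Gabarapl1 these were Becn1 (43.9%, Cntd1), Atg4d (19.3%, Kri1) and Sqstm1 (17.3%, 3010026O09Rik), each with a partner on the opposite strand. The other was Atg9a (32.6%), which shared 1832 bases with Gm29253 on its own strand and 46 bases on the opposite strand.

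In APP/PS1 against NTG mice, 0 of 41 members passed an adjusted p of 0.05 (edgeR quasi-likelihood test, Benjamini-Hochberg adjustment over the 16417 genes tested), where 5.68% of all genes did. DESeq2 called 1 member (Pink1) and limma-voom 0. At an unadjusted p under 0.05 there were 2, Pink1 and Atg4b, both lower in APP/PS1, against 18.7% of all genes (10.6% higher and 8.05% lower). That count was 4 with DESeq2, 6 with all 3 groups in one fit and 8 with limma-voom. These 2 were also the members whose groups did not overlap (10% of all genes). The log2 fold changes ran from -0.26 (Pink1) to 0.20 (Optn), 18 members were higher and 23 lower, and their median was -0.010 beside -0.004 for all genes. The median absolute log2 fold change was 0.060 for the members and 0.092 for all genes. For all 41 members the 95% interval lay within 0.5 of no change on the log2 scale, which held for 75.9% of all genes, and the widest reached 0.46 (Optn). Members and all genes were not matched for level here or in the other comparisons. Leaving out 1 mouse moved the unadjusted count from 2 to between 1 (without NTG mouse 10) and 5 (without NTG mouse 7 or APP/PS1 mouse 16), with 4 without NTG mouse 9 or APP/PS1 mouse 19. Without APP/PS1 mouse 16, 1 member passed the adjusted p (Optn). The shares of all genes given for each comparison are from the edgeR fit with every mouse. Counts of members under other settings, or without a mouse, have no such share beside them and are not read as a result about the members.

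For CP2 against vehicle in APP/PS1 mice, 0 of 41 members passed the adjusted p, beside 1 of 16407 genes or 0.00609%. No member had an unadjusted p under 0.05 either (6.55% of all genes, 2.88% higher and 3.66% lower), and there was no member whose groups did not overlap (1.14% of all genes). DESeq2 and limma-voom also called 0 members after adjustment and 1 each before it (Wipi2 and Atg2a). The log2 fold changes ran from -0.13 (Atg14) to 0.09 (Atg2a), with 18 members higher, 23 lower and a median of -0.007 beside -0.006 for all genes. Each of the 41 intervals lay within 0.5 of no change (85.0% of all genes) and the farthest bound was that of Atg14, at -0.29. The median standard error of a member was 0.050. Without APP/PS1 mouse 16, 3 members had an unadjusted p under 0.05 (Atg2a, Gabarap and Optn), and there was 1 without CP2-treated mouse 22 (Gabarap) and 1 without CP2-treated mouse 24 (Atg14), while 0 passed the adjusted p.

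In CP2-treated against NTG mice, 0 of 41 members passed the adjusted p, where 6.02% of all genes did. DESeq2 called 0 members and limma-voom 1 (Tfeb). At an unadjusted p under 0.05 there were 6 members against 20.2% of all 16416 genes (11.6% higher and 8.59% lower). Atg12, Gabarapl2 and Pink1 were lower and Optn, Tfeb and Tfe3 higher in the CP2-treated mice. Only the groups of Atg4b did not overlap (9.61% of all genes). The log2 fold changes ran from -0.20 (Pink1) to 0.21 (Tfeb), with a median of 0.001 beside -0.002 for all genes, and all 41 intervals lay within 0.5 (83.2% of all genes). The count moved with single mice. Without NTG mouse 8 it was 0, and without CP2-treated mouse 21 or 25 it was 3 (Optn, Tfeb and Tfe3). Without NTG mouse 10 it was 6 again, but Optn, Tfeb and Tfe3 were not among them. Without NTG mouse 7 it was 7, of which 3 passed the adjusted p (Map1lc3a, Optn and Tfeb). The 2 comparisons with NTG share their 4 NTG mice, and the first 2 comparisons share the vehicle-treated APP/PS1 mice.

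**Figure D2:**
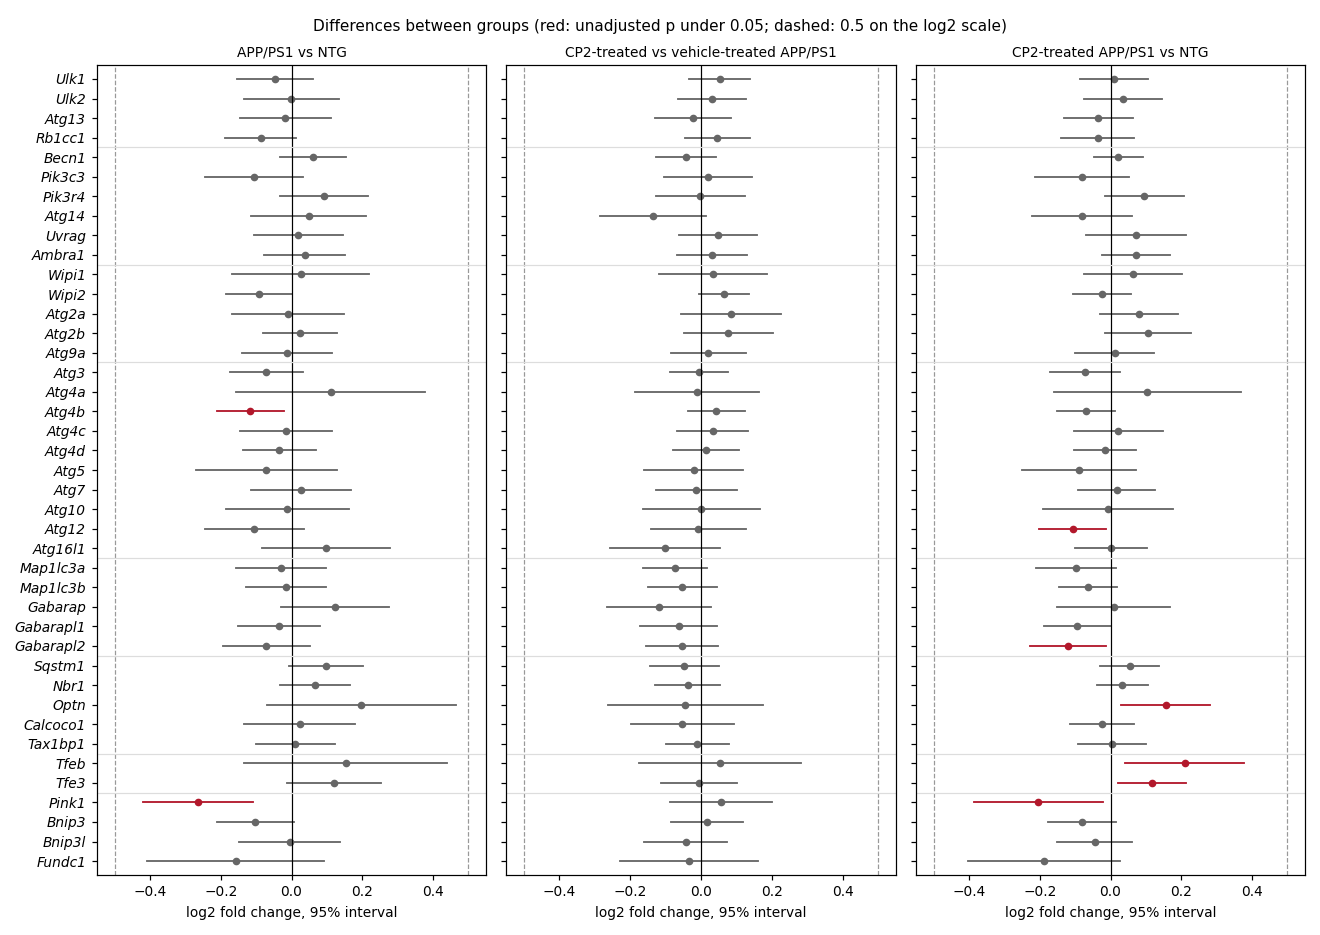
Log2 fold change and 95% interval of each of the 41 genes in the 3 comparisons, in blocks by role; red marks an unadjusted p under 0.05 and dashed lines stand at 0.5 on the log2 scale. Every interval lies inside the dashed lines, no gene is red in the comparison of CP2 with vehicle, and Pink1 lies farthest to the left in both comparisons with NTG.

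The 4 members of the kinase complex that starts autophagy showed no difference beyond 0.09 on the log2 scale in either direction in any comparison. These are the kinases Ulk1 and Ulk2 and their partners Atg13 and Rb1cc1 (FIP200), the scaffold of the complex. All 4 had lower means in APP/PS1 than in NTG mice, with log2 fold changes from -0.09 (Rb1cc1) to -0.001 (Ulk2), and no p was under 0.05. Ulk1 (ENSMUSG00000029512, chr5:110784488-110810097 in mm10, the build of the table) stood at 94.1, 90.8, 99.1 and 102 CPM in NTG mice 7 to 10. In APP/PS1 mice 16 to 20 it stood at 89.4, 89.3, 96.0, 95.5 and 93.9 CPM. In CP2-treated mice 21 to 25 it stood at 97.6, 92.8, 94.1, 97.5 and 99.2 CPM. The 3 groups overlapped throughout. The log2 fold change of Ulk1 was -0.05 ± 0.05 (SE) in APP/PS1 against NTG and 0.05 ± 0.04 for CP2 against vehicle in APP/PS1 mice, with adjusted p-values of 0.67 and 0.80. Its 95% interval under CP2 ran from -0.03 to 0.14.

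Of the 6 genes of the class III PI3-kinase complex, 5 had higher means in APP/PS1 than in NTG mice and 1, the catalytic subunit gene Pik3c3 (VPS34), a lower one (-0.11), none with a p under 0.05. Becn1 (ENSMUSG00000035086, chr11:101285952-101302286), for Beclin 1, the scaffold that the other subunits gather on, was the most even member of the complex. It stood at 91.1, 91.9, 90.02 and 90.5 CPM in the NTG mice, at 98.9, 99.1, 92.4, 88.4 and 92.6 CPM in the APP/PS1 mice and at 90.2, 91.0, 92.9, 92.5 and 91.1 CPM in the CP2-treated ones. APP/PS1 mice 16 and 17 were above all others, and the groups overlapped. Its log2 fold change was 0.06 ± 0.04 for genotype (adjusted p = 0.50) and -0.04 ± 0.04 for CP2 (adjusted p = 0.82), and the overlap with Cntd1 applies to these counts. Atg14 (ENSMUSG00000037526, chr14:47540894-47568434), which directs the complex to the start of autophagy, gave the largest difference under CP2. It stood at 22.9, 21.7, 19.5, 19.03 and 19.2 CPM in the vehicle-treated and 17.1, 18.5, 19.5, 20.2 and 17.9 CPM in the CP2-treated mice, beside 17.9, 20.8, 20.1 and 20.7 CPM in NTG mice. The log2 fold change under CP2 was -0.13 ± 0.07 (unadjusted p = 0.0735, adjusted p = 0.75 by edgeR). Vehicle-treated mice 16 and 17 held the high values, and without mouse 16 the difference was -0.09.

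The genes for membrane supply and lipid transfer were the only group with 5 of 5 means higher under CP2 than under vehicle, from 0.02 (Atg9a) to 0.09 (Atg2a) on the log2 scale, with no p under 0.05. Their products are the PI3P readers Wipi1 and Wipi2, the lipid transfer proteins Atg2a and Atg2b and the lipid scramblase Atg9a, which arrives in vesicles that seed the new membrane. Wipi2 (ENSMUSG00000029578, chr5:142629542-142670588), which recruits the conjugation complex, had the smallest p among all members for CP2. It stood at 116, 117, 114, 111 and 119 CPM in the vehicle-treated and at 119, 119, 123, 123 and 121 CPM in the CP2-treated mice, and at 118, 120, 128 and 130 CPM in NTG mice. In 4 of 5 CP2-treated mice it was above all vehicle-treated APP/PS1 mice, and the CP2-treated mean (121 CPM) lay between those of the vehicle-treated (116 CPM) and NTG mice (124 CPM). The log2 fold change was 0.06 ± 0.03 for CP2 (unadjusted p = 0.0707, adjusted p = 0.75 by edgeR) and -0.09 ± 0.04 for genotype (unadjusted p = 0.0501, adjusted p = 0.27). Atg2a and Atg2b were at 0.09 and 0.08 on the log2 scale under CP2.

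Among the 10 conjugation genes, 7 had lower and 3 higher means in APP/PS1 than in NTG mice. Atg4b (ENSMUSG00000026280, chr1:93751500-93790610), the main protease that trims ATG8 proteins before they are joined to lipid and frees them afterwards, was the member that parted the groups most cleanly at a small difference. It stood at 62.7, 61.3, 61.1 and 64.6 CPM in the NTG mice and at 53.8, 59.4, 57.9, 57.4 and 57.8 CPM in the APP/PS1 mice. In the CP2-treated mice it stood at 59.8, 56.9, 60.7, 59.9 and 57.6 CPM. Every NTG mouse was above every APP/PS1 mouse, treated or not. The difference for genotype was -0.12 ± 0.04 on the log2 scale, or 0.922-fold (unadjusted p = 0.0207, adjusted p = 0.17 by edgeR), and that of the CP2-treated mice from NTG -0.07 ± 0.04 (adjusted p = 0.33). Without NTG mouse 10 the first was -0.09 with an unadjusted p of 0.0813. Under CP2 Atg4b differed by 0.04 ± 0.04 (adjusted p = 0.82).

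Atg12 and Atg16l1, which with Atg5 form the complex that places ATG8 proteins on the membrane, went different ways. Atg12 (ENSMUSG00000032905) stood at 55.8, 58.0, 57.6 and 54.6 CPM in NTG mice, at 58.6, 55.7, 51.1, 47.3 and 48.8 CPM in APP/PS1 mice and at 50.7, 55.1, 50.6, 53.5 and 50.2 CPM in CP2-treated mice. The vehicle-treated APP/PS1 mice spread most, and their mouse 16 held the highest value of all 14. The difference of the CP2-treated mice from NTG was -0.11 ± 0.04 (unadjusted p = 0.0299, adjusted p = 0.19 by edgeR), and that of the vehicle-treated mice -0.10 ± 0.06 (adjusted p = 0.42). Without mouse 16 the latter was -0.15 (unadjusted p = 0.0224, adjusted p = 0.14 by edgeR). Between the APP/PS1 groups it was -0.01 ± 0.06. Atg16l1 (ENSMUSG00000026289, chr1:87755870-87792428) had its highest value, 69.3 CPM, in the same APP/PS1 mouse 16, where the other vehicle-treated mice ran from 52.6 to 59.4 CPM, the CP2-treated ones from 52.0 to 56.2 CPM and the NTG mice from 50.7 to 58.7 CPM. Its log2 fold change was 0.10 ± 0.08 for genotype and -0.10 ± 0.07 for CP2, neither with a p under 0.05, and without mouse 16 these were 0.03 and -0.03. For the E1-like enzyme Atg7 and the E2-like enzymes Atg3 and Atg10, the largest difference was -0.07 (Atg3).

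The 5 ATG8 genes all had lower means under CP2 than under vehicle, from -0.12 (Gabarap) to -0.05 (Map1lc3b) on the log2 scale, and none had a p under 0.05. Map1lc3b (ENSMUSG00000031812, chr8:121590361-121598760) stood at 165, 166, 179 and 167 CPM in NTG mice. In vehicle-treated APP/PS1 mice it stood at 163, 182, 170, 162 and 156 CPM, and in CP2-treated ones at 162, 166, 158, 161 and 156 CPM. The groups overlapped, and the treated mice were the most even. The log2 fold change under CP2 was -0.05 ± 0.04 (95% interval -0.15 to 0.04, adjusted p = 0.82) and that for genotype -0.01 ± 0.05 (adjusted p = 0.91). Map1lc3a (ENSMUSG00000027602, chr2:155276297-155278073) stood at 108, 127, 126 and 123 CPM in NTG mice, at 127, 116, 114, 115 and 118 CPM in APP/PS1 mice and at 109, 114, 118, 109 and 111 CPM in the CP2-treated ones. NTG mouse 7 lay with the treated mice, below the other 3 NTG mice. The difference of CP2-treated from NTG mice was -0.10 ± 0.05 (adjusted p = 0.32), and without NTG mouse 7 it was -0.15 with an adjusted p of 0.0482.

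Gabarap and Gabarapl2 belong to the branch of the family that acts late, in closing the autophagosome and joining it to the lysosome. Gabarap (ENSMUSG00000018567, chr11:69991143-69994951) stood at 119, 109, 101 and 102 CPM in NTG mice, at 106, 117, 127, 120 and 113 CPM in APP/PS1 mice and at 112, 120, 109, 102 and 94.9 CPM in the CP2-treated ones. It was the only ATG8 gene with a higher mean in APP/PS1 than in NTG mice, by 0.12 ± 0.07, and the CP2-treated mice differed from the vehicle-treated by -0.12 ± 0.07 and from NTG mice by 0.01 ± 0.07. The adjusted p-values were 0.39, 0.75 and 0.97. The difference under CP2 was -0.15 without vehicle-treated mouse 16 (unadjusted p = 0.0409, adjusted p = 0.51 by edgeR) and -0.16 without CP2-treated mouse 22 (unadjusted p = 0.0298). Gabarapl2 (ENSMUSG00000031950, chr8:111940703-111953612) stood at 151, 142, 131 and 139 CPM in NTG mice, at 132, 139, 142, 123 and 130 CPM in APP/PS1 mice and at 128, 128, 137, 129 and 120 CPM in the CP2-treated ones. Its 3 groups overlapped in part, and the CP2-treated mice differed from NTG by -0.12 ± 0.05 (unadjusted p = 0.033, adjusted p = 0.20 by edgeR). Without NTG mouse 7 that difference was -0.08 (unadjusted p = 0.104).

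The 5 cargo receptors all had higher means in APP/PS1 than in NTG mice, from 0.01 (Tax1bp1) to 0.20 (Optn) on the log2 scale, and all 5 had lower means under CP2 than under vehicle, from -0.05 (Calcoco1) to -0.01 (Tax1bp1). None of these differences had a p under 0.05, and the vehicle-treated mice enter both comparisons. Calcoco1 stood at 78.9 CPM in APP/PS1 mouse 16 and at 61.0 to 66.7 CPM in the other vehicle-treated mice. It ran from 63.5 to 69.1 CPM in NTG and from 61.8 to 67.6 CPM in CP2-treated mice, so both of its differences rested on mouse 16. Sqstm1 (ENSMUSG00000015837, chr11:50199366-50210827), for p62, the receptor of ubiquitinated aggregates and itself a substrate of autophagy, stood at 380, 388, 395 and 398 CPM in NTG mice. It stood at 410, 451, 419, 389 and 409 CPM in APP/PS1 mice and at 398, 401, 427, 391 and 394 CPM in the CP2-treated ones. In 4 of 5 APP/PS1 mice it was above all NTG mice. The log2 fold change was 0.10 ± 0.05 for genotype (unadjusted p = 0.0664, adjusted p = 0.31 by edgeR) and -0.05 ± 0.04 for CP2 (adjusted p = 0.83).

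Optn (ENSMUSG00000026672, chr2:5020642-5064051), for optineurin, a receptor that takes damaged mitochondria and aggregates to the autophagosome, had the largest positive difference for genotype. It stood at 25.7, 21.6, 23.2 and 22.5 CPM in NTG mice, at 19.7, 25.4, 30.7, 28.5 and 28.1 CPM in APP/PS1 mice and at 27.0, 25.1, 25.5, 26.1 and 24.8 CPM in the CP2-treated ones. APP/PS1 mouse 16 held the lowest value of all 14, vehicle-treated mice 18, 19 and 20 held the 3 highest, and the CP2-treated mice lay close together. With all mice the log2 fold change for genotype was 0.20 ± 0.12 (95% interval -0.07 to 0.46, adjusted p = 0.43). Without mouse 16, the library with striatal markers, it was 0.29 with an adjusted p of 0.0399. The CP2-treated mice were higher than NTG by 0.16 ± 0.06, or 1.114-fold (unadjusted p = 0.0192, adjusted p = 0.15 by edgeR). Against vehicle-treated APP/PS1 mice they differed by -0.04 ± 0.10, and by -0.13 without mouse 16 (unadjusted p = 0.038, adjusted p = 0.51). The 8 oligodendrocyte markers summed to their lowest value of all mice, 4831 CPM, in this APP/PS1 mouse 16 and to their highest, 7810 CPM, in NTG mouse 7, the NTG mouse with the highest Optn, and 1 of 8 was called higher in APP/PS1 than in NTG mice. The 6 reactive astrocyte markers likewise summed highest among NTG mice in mouse 7 (734 CPM, the others 474 to 501 CPM) and lowest among vehicle-treated APP/PS1 mice in mouse 16 (1383 CPM, the others 2312 to 3361 CPM), and 6 of 6 were called higher in both APP/PS1 groups than in NTG mice, with 1618 to 2744 CPM in the CP2-treated ones. The 10 microglial and the 9 plaque-associated microglial markers also summed highest among NTG mice in mouse 7 (461 and 214 CPM). Among vehicle-treated APP/PS1 mice both sums were lowest in mouse 16 (827 and 317 CPM). For genotype 10 of 10 and 7 of 9 of these markers were called higher. The part of all these cell types in the result was not tested.

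Tfeb and Tfe3, which switch on lysosomal and autophagy genes when they enter the nucleus, had higher means in both APP/PS1 groups than in NTG mice. Tfeb (ENSMUSG00000023990, chr17:47737030-47792419) stood at 11.1, 8.90, 9.49 and 9.35 CPM in NTG mice 7 to 10. It stood at 8.46, 9.91, 11.5, 13.1 and 10.7 CPM in APP/PS1 mice and at 11.6, 11.6, 10.6, 10.9 and 11.0 CPM in the CP2-treated ones. The vehicle-treated APP/PS1 mice held both the lowest and the highest value, NTG mouse 7 lay among the CP2-treated mice, and those varied least. CP2-treated mice were higher than NTG by 0.21 ± 0.08, or 1.156-fold (95% interval 1.029 to 1.299, unadjusted p = 0.0189, adjusted p = 0.15 by edgeR). Without NTG mouse 7 the difference was 0.28 with an adjusted p of 0.036, and without NTG mouse 8 or 10 it was 0.17 and 0.18 with unadjusted p-values of 0.06 and 0.064. The difference for genotype was 0.15 ± 0.13 (adjusted p = 0.59), with 0.23 without mouse 16 and 0.06 without mouse 19. That under CP2 was 0.05 ± 0.10 (95% interval -0.17 to 0.28, adjusted p = 0.92), with -0.02 without mouse 16.

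As for Optn, NTG mouse 7 was the highest NTG mouse and APP/PS1 mouse 16 the lowest vehicle-treated mouse for Tfeb. The oligodendrocyte, reactive astrocyte, microglial and plaque-associated microglial marker sums had the same highest NTG and lowest vehicle-treated mouse. The order of the 5 vehicle-treated mice was the same for Tfeb and the reactive astrocyte sum, but the orders differed within the NTG and within the CP2-treated mice. The part of any of these cell types was not tested. Tfe3 (ENSMUSG00000000134, chrX:7762560-7775202) stood at 31.7, 30.4, 34.4 and 31.4 CPM in NTG mice, at 37.5, 32.4, 32.4, 35.1 and 35.5 CPM in APP/PS1 mice and at 34.9, 34.8, 34.2, 34.6 and 33.6 CPM in the CP2-treated ones. NTG mouse 9 lay among the treated mice and the other 3 NTG mice lay below all of them. The CP2-treated mice were higher than NTG by 0.12 ± 0.04 (unadjusted p = 0.022, adjusted p = 0.16 by edgeR), vehicle-treated mice by 0.12 ± 0.06 (adjusted p = 0.33), and the APP/PS1 groups differed by -0.01 ± 0.05.

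The 4 mitophagy genes all had lower means in both APP/PS1 groups than in NTG mice. Pink1 (ENSMUSG00000028756, chr4:138313409-138326307), for the kinase that builds up on damaged mitochondria and recruits the ubiquitin ligase Parkin, came nearest to the threshold of all members. It stood at 519, 446, 419 and 426 CPM in NTG mice 7 to 10. In APP/PS1 mice 16 to 20 it stood at 358, 372, 383, 393 and 370 CPM, and in CP2-treated mice 21 to 25 at 357, 362, 460, 386 and 386 CPM. Every vehicle-treated APP/PS1 mouse was below every NTG mouse, and of the treated mice only mouse 23 reached the NTG range. The 8 astrocyte markers also summed lower in every vehicle-treated (4479 to 5003 CPM) and CP2-treated mouse (4518 to 4920 CPM) than in every NTG mouse (5164 to 5708 CPM). For genotype 1 of 8 was called lower, and in CP2-treated against NTG mice 2 were called lower and 1 higher. Genes that hold ribosomal RNA took 7.40% of the counts in mouse 23, 4.49 to 4.88% in the other 4 CP2-treated mice, 2.40 to 5.51% in vehicle-treated APP/PS1 and 4.72 to 7.504% in NTG mice. The part of astrocytes or of dentate gyrus tissue in the Pink1 result was not tested. With the ribosomal share in the model the genotype difference of Pink1 was -0.24 (unadjusted p = 0.03, adjusted p = 0.26 by edgeR). Pink1 shares 6.7% of its exonic bases (179 bases) with other genes on its own strand, of which Gm27646 covers the most (110 bases). Means were 453 ± 45.8 CPM (SD, n = 4) in NTG, 375 ± 13.4 CPM (SD, n = 5) in APP/PS1 and 390 ± 41.5 CPM (SD, n = 5) in CP2-treated mice. The difference for genotype was -0.26 ± 0.07 on the log2 scale, or 0.833-fold (95% interval 0.748 to 0.928), with an unadjusted p of 0.0037 and an adjusted p of 0.0585 by edgeR. It passed the adjusted threshold with DESeq2 (adjusted p = 0.0052) and with all 3 groups in one fit (adjusted p = 0.0482), and the highest adjusted p over the 8 other settings was 0.257. Leaving out 1 mouse at a time gave -0.30 to -0.19, with adjusted p-values from 0.067 to 0.119.

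The Pink1 difference of the CP2-treated mice from NTG was -0.20 ± 0.08 (unadjusted p = 0.0315, adjusted p = 0.19 by edgeR), which became -0.13 without NTG mouse 7 (unadjusted p = 0.108) and -0.27 without treated mouse 23 (adjusted p = 0.056). Between the APP/PS1 groups the difference was 0.06 ± 0.07 (95% interval -0.09 to 0.20, adjusted p = 0.86), and -0.004 without mouse 23. Bnip3 (ENSMUSG00000078566, chr7:138890836-138909519), a receptor in the outer mitochondrial membrane that is induced by low oxygen, stood at 96.4, 99.9, 98.1 and 91.3 CPM in NTG mice, at 92.2, 92.1, 92.5, 80.8 and 89.6 CPM in APP/PS1 mice and at 84.7, 89.96, 95.9, 93.5 and 88.4 CPM in the CP2-treated ones. Of the NTG mice, only mouse 10 lay within the range of the vehicle-treated mice. Its log2 fold change was -0.10 ± 0.05 for genotype (unadjusted p = 0.0619, adjusted p = 0.30 by edgeR) and 0.02 ± 0.05 for CP2. The receptor gene Fundc1 had means of 59.9 ± 8.53 CPM (SD, n = 4), 53.4 ± 6.25 CPM (SD, n = 5) and 52.1 ± 5.17 CPM (SD, n = 5) in NTG, APP/PS1 and CP2-treated mice. The receptor gene Bnip3l, a paralog of Bnip3, had log2 fold changes of -0.005 for genotype, -0.04 for CP2 and -0.04 for CP2-treated against NTG mice.

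**Figure D3:**
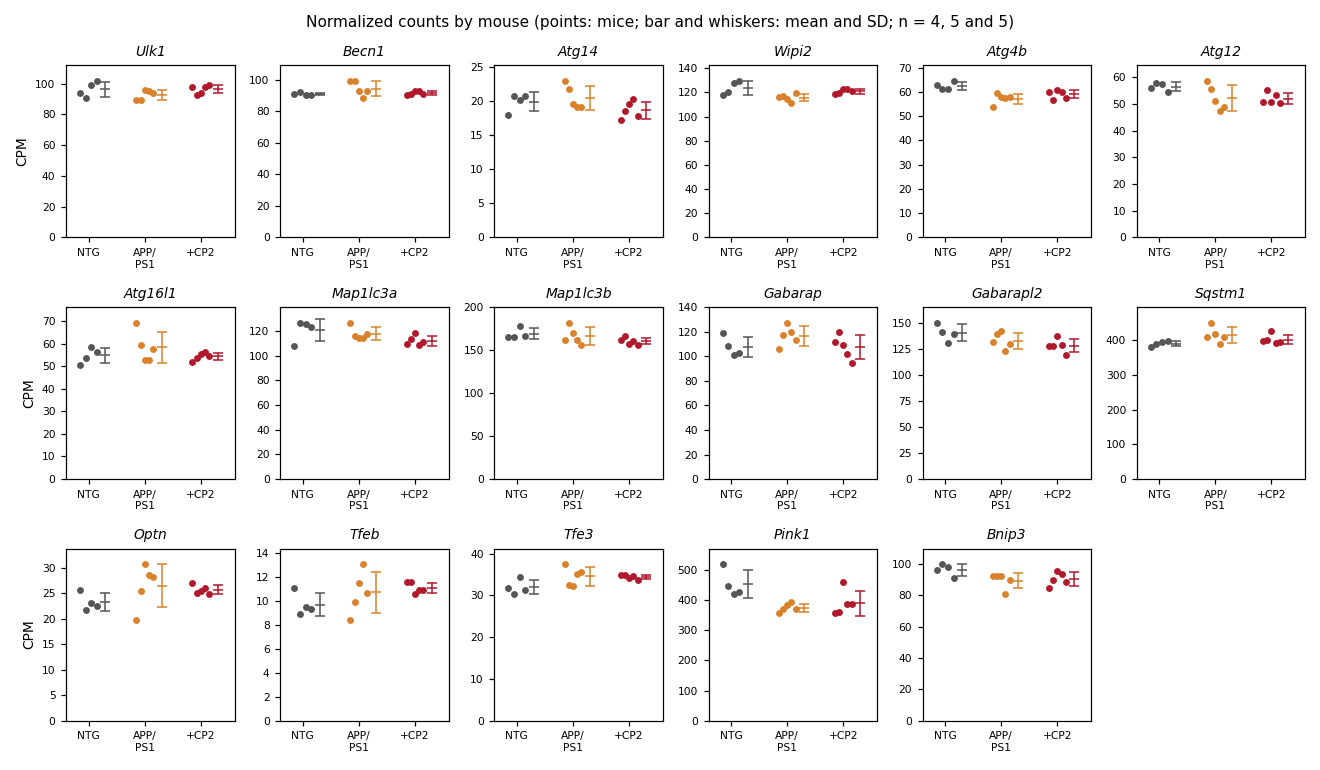
Normalized counts (CPM) of 17 genes in each mouse, with the mean and SD of each group beside the points (NTG n = 4, APP/PS1 n = 5, APP/PS1 with CP2 n = 5; every axis starts at 0). The Pink1 panel shows all 5 vehicle-treated APP/PS1 mice below the 4 NTG mice, and the Optn and Tfeb panels show the wide spread of the vehicle-treated APP/PS1 mice.

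Read mouse by mouse, no member of any mouse was more than 0.5 on the log2 scale from the NTG mean. The median deviation of the 41 members ran from -0.058 in APP/PS1 mouse 19, where 9 of 41 were above the NTG mean, to 0.013 in NTG mouse 8. The farthest single values were Tfeb in APP/PS1 mouse 19 (0.44), Fundc1 in CP2-treated mouse 25 (0.41) and Optn in APP/PS1 mouse 18 (0.40), where those of Tfeb and Optn were above and that of Fundc1 below the NTG mean. Pink1 was the farthest member in 4 of the 10 APP/PS1 mice (17, 20, 21 and 22).

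**Figure D4:**
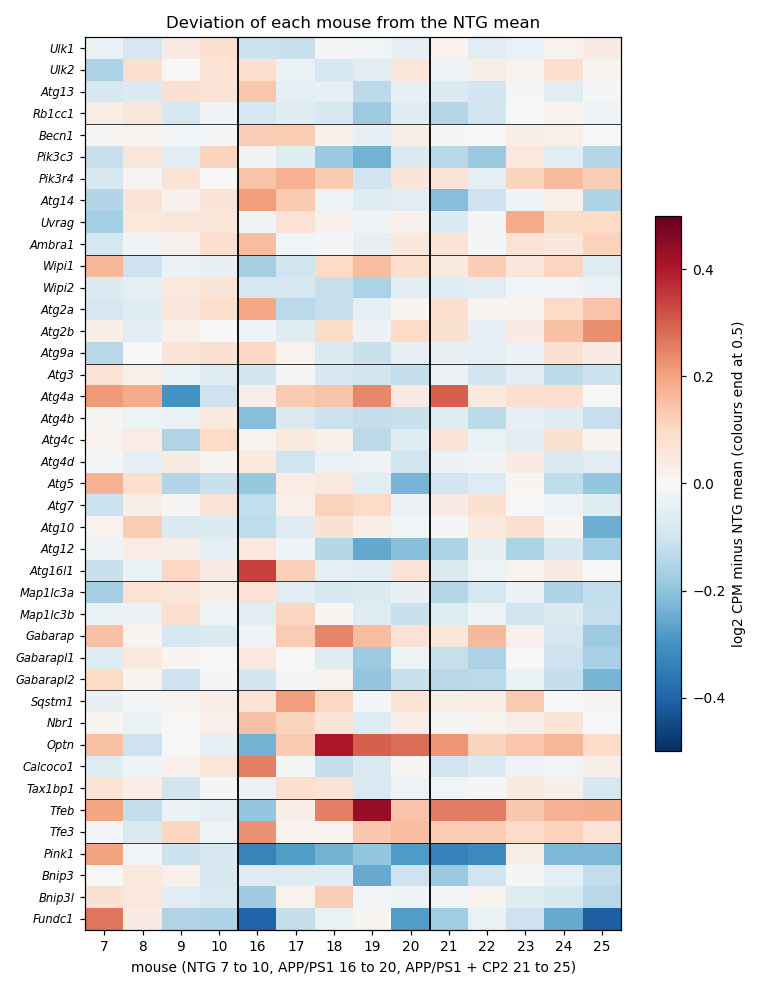
Difference of each mouse from the NTG mean in log2 CPM for the 41 genes (red above, blue below; black lines part the 3 groups and the blocks by role). Colours are pale for most genes, Pink1 is blue in 9 of 10 APP/PS1 mice, and no value reaches the ends of the colour scale at 0.5.

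Beyond the 41 members, 54 further genes of the pathway were listed, from AMPK and mTOR above it to the fusion of the autophagosome with the lysosome, and 53 of them were tested (Tfec was not). None passed the adjusted p in any comparison with edgeR. Of the 8 named among them, DESeq2 called Sh3glb1 for genotype and Prkaa1 and Fkbp8 in CP2-treated against NTG mice, and limma-voom called the latter pair. At an unadjusted p under 0.05 there were 3 for genotype (1 higher, 2 lower), 2 for CP2 (both lower) and 11 in CP2-treated against NTG mice (6 higher, 5 lower), beside the 18.7%, 6.55% and 20.2% of all genes given for the members. Sh3glb1, whose product binds the Beclin 1 complex through UVRAG, ran from 51.7 to 57.0 CPM in NTG and 57.1 to 64.6 CPM in APP/PS1 mice, with no overlap. The difference was 0.17 ± 0.05 (adjusted p = 0.12, and 0.044 with DESeq2). Atg101, a subunit of the ULK1 complex, was at 22.5 to 26.7 CPM in NTG and 21.8 to 23.1 CPM in APP/PS1 mice, a difference of -0.17 ± 0.06 (adjusted p = 0.16). The mitochondrial ubiquitin ligase gene Mul1 differed by -0.12 ± 0.05 (adjusted p = 0.22).

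Between the APP/PS1 groups, the 2 with an unadjusted p under 0.05 were Nipsnap1 and Tex264. Nipsnap1, for a mitochondrial protein that binds ATG8 proteins on damaged mitochondria, ran from 59.5 to 68.0 CPM in vehicle-treated and 55.0 to 60.5 CPM in CP2-treated mice, a difference of -0.13 ± 0.05 (unadjusted p = 0.0149, adjusted p = 0.74 by edgeR). Tex264, a receptor for autophagy of the endoplasmic reticulum, ran from 54.8 to 63.3 CPM and from 47.3 to 54.1 CPM, with no overlap between the groups, and differed by -0.13 ± 0.05 (adjusted p = 0.74). Without vehicle-treated mouse 17 the Tex264 difference was -0.09 (unadjusted p = 0.0776), and it also missed an unadjusted p of 0.05 without mouse 20, 21 or 25. Wdfy3, for the aggregate adaptor ALFY, differed by 0.11 ± 0.05 (unadjusted p = 0.0636).

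In CP2-treated against NTG mice the nearest to the threshold was Fkbp8, a receptor of the outer mitochondrial membrane that binds LC3. It stood at 296, 312, 317 and 303 CPM in NTG and at 261, 279, 294, 261 and 255 CPM in the CP2-treated mice, so that the groups did not overlap, with vehicle-treated APP/PS1 mice between at 278 to 310 CPM. The difference was -0.17 ± 0.05 on the log2 scale (unadjusted p = 0.00303, adjusted p = 0.0502 by edgeR), and 3 of the 8 other settings placed it under 0.05, with adjusted p-values from 0.0039 to 0.098. Leaving out 1 mouse at a time gave differences of -0.20 to -0.16 for Fkbp8. In 2 of these 9 edgeR fits it passed the adjusted threshold, and the adjusted p-values ran from 0.023 to 0.138. Prkaa1, for a catalytic subunit of AMPK, the energy sensor that phosphorylates ULK1, ran from 38.9 to 42.9 CPM in NTG and from 43.7 to 45.8 CPM in CP2-treated mice, with no overlap and a difference of 0.13 ± 0.04 (adjusted p = 0.095, and 0.045 with DESeq2 as with limma-voom). Vehicle-treated APP/PS1 mice ran from 36.9 CPM in mouse 16 to 50.8 CPM, around the CP2-treated mice. Atg101 (-0.20 ± 0.07, adjusted p = 0.13) was lower here as in the vehicle-treated mice, against the same 4 NTG mice.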

How the data were processed

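RNA sequencing of brain tissue with hippocampus and cortex from 14 female mice was analysed in 3 groups taken from the labels. The authors prepared unstranded TruSeq libraries, ran TopHat2 on mm10 and FeatureCounts on Ensembl genes, where a read counted on each gene it overlapped. The strand setting is not given in the sources used here. The authors deposited read counts per gene without normalization and RPKM values. Here counts were tested and RPKM served only for levels between genes. Nothing in the labels pairs mice across groups, and replicates were separate mice.

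Genes over 1 CPM in every mouse of at least 1 group were tested on the 2 groups compared alone, with R 4.3.3 and edgeR 4.0.16 (TMM factors, quasi-likelihood test, Benjamini-Hochberg adjustment). Fold changes are log2 with the standard error implied by the test. Alternatives were DESeq2 1.42.0, limma-voom (limma 3.58.1) with quality weights, RLE or upper-quartile factors, no filter, a minimum of 10 counts a mouse, one fit of all 3 groups, the share of ribosomal RNA-like genes (2.40 to 7.50% of counts) as a covariate, and each mouse left out. The procedure was tested on simulated data. Python 3.11.15, pandas 2.3.3 and matplotlib 3.10.9 made the sequence search and figures. Overlaps between genes came from GENCODE M21, where 32 of 41 members had the coordinates of the deposited table. None of the 26 replicate pairs were identical.

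Values per mouse were given for the 6 members with the smallest p in each comparison and for Ulk1, Becn1, Map1lc3b and Tfeb, and of the other pathway genes the 3 with the smallest p in each comparison were named. Any other gene was named after its values were seen, as an end of a range or to complete its role. Members and lists were chosen with earlier results of these data known. Of the markers, 1 striatal and 1 plaque-associated microglial gene could not be matched to a single row.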

Additional observations from a re-analysis of the deposited data

Results flagged for a closer look

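Among 25 named genes in 3 groups, 75 sets of 4 or 5 mice were examined for 1 mouse far from the rest, and 7 were found. Chance alone marks about 1 in 20 such sets. In APP/PS1 mice, Map1lc3a was highest in mouse 16 at 127 CPM (nearest 118 CPM), Bnip3 was lowest in mouse 19 at 80.8 CPM (nearest 89.6 CPM), and Tex264 was highest in mouse 17 at 63.3 CPM (nearest 56.7 CPM). In NTG mice, Map1lc3b was highest in mouse 9 at 179 CPM (nearest 167 CPM). In CP2-treated APP/PS1 mice, all 3 such values came from mouse 23, where Pink1 was at 460 CPM (nearest 386 CPM), Sqstm1 at 427 CPM (nearest 401 CPM) and Sh3glb1 at 55.1 CPM (lowest, nearest 61.0 CPM). Ribosomal RNA-like genes took 7.40% of the counts of mouse 23 and 4.49 to 4.88% in the other 4 CP2-treated mice. The cause of these values was not tested.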

How the results depend on the processing

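No paired analysis was possible because the groups share no replicate numbers. For APP/PS1 against NTG, the 0 members past the adjusted p became 1 with DESeq2 and 1 with all 3 groups in one fit (Pink1 in both), and the unadjusted count of 2 became 4 with DESeq2, 6 with all 3 groups and 8 with limma-voom. For CP2 against vehicle, the unadjusted count of 0 became 1 with DESeq2 and 1 with limma-voom. For CP2-treated APP/PS1 against NTG, the adjusted count of 0 became 1 with limma-voom (Tfeb), and the unadjusted count of 6 became 3 with all 3 groups. Leaving out 1 mouse gave, in the same order of comparisons, 0 to 1, 0 and 0 to 3 members past the adjusted p, and 1 to 5, 0 to 3 and 0 to 7 past the unadjusted one. The share of all genes called under each of these settings is not given here, so the counts describe the settings and not the members.

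Differences near 0 changed sign. With ribosomal RNA content added to the model, genotype values became -0.036 (Atg14) and -0.012 (Atg16l1), CP2 values 0.094 (Atg12), -0.049 (Tfeb), 0.0030 (Tfe3) and -0.026 (Pink1), and Ulk1 in CP2-treated APP/PS1 against NTG -0.0051. With limma-voom, CP2 values became 0.028 (Atg12) and 0.025 (Tfe3). Atg16l1 in CP2-treated APP/PS1 against NTG became -0.0049 with DESeq2, -0.0049 with RLE factors, -0.0064 with no filter and -0.023 with limma-voom. Without 1 mouse, Map1lc3b ran from -0.048 to 0.010 for genotype. For CP2, Atg12 ran from -0.039 to 0.038, Optn from -0.13 to 0.011, Tfeb from -0.020 to 0.14, Tfe3 from -0.035 to 0.026, Pink1 from -0.0045 to 0.087 and Bnip3 from -0.014 to 0.040. For CP2-treated APP/PS1 against NTG, Ulk1 ran from -0.016 to 0.022, Atg16l1 from -0.033 to 0.034 and Gabarap from -0.035 to 0.061. The cause of these changes was not tested. The other differences of named genes that were refitted kept their direction. Each member had at least 322 counts in every mouse, and groups held 4 or 5 mice. Whether tissue composition took part in the differences was not tested.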
